A study of Homo sapiens with 15 samples.

Results

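The subject is SLC2A5, which encodes a fructose transporter, with 6 other genes of the SLC2A family of hexose transporters (SLC2A1, SLC2A3, SLC2A6, SLC2A8, SLC2A10 and SLC2A13) and KHK, the gene of ketohexokinase. These 8 genes, of the 20468 in each expression table, were chosen on their measured RNA levels across the culture conditions of these same libraries. Their values are therefore given as a description, with standard errors and no p-values, and nothing is read from how many of them passed a threshold.

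The study used RNA-Seq to ask how stromal cells change the RNA of multiple myeloma (MM) cells, through soluble factors alone or with contact. MM.1S and RPMI8226, both established human MM lines, were grown alone (MONO), in the upper transwell above HS5 cells (TSW), or in the lower chamber among adherent HS5 cells (CO). HS5 is an established human bone marrow stromal line, and in TSW a membrane kept it away from the MM cells while letting soluble factors pass. MM.1S had 3 libraries per condition and RPMI8226 had 2, which makes 15 in all.

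All groups were grown in the same medium with serum, collected after the same time and flow sorted for live CD90- CD38+ cells, a gate meant to leave stromal cells out. Cells from coculture were also treated with trypsin. By the methods, a MONO well held MM cells only. A coculture well held HS5 cells, an insert and MM cells in both chambers, each chamber with its own medium. Cell load and medium volume thus differed between MONO and both cocultures, and their part in the results was not tested. Each line stands for 1 tumor, and nothing in the labels says whether replicates were separate cultures, so standard errors and p-values here measure the spread between these libraries only. The values are RPKM, the number of pair-end tags (PETs) on a gene divided by its transcript length and by the PETs on all genes of the library. PETs recovered from the values totalled between 9008977 in replicate 1 of MM.1S MONO and 19050772 in replicate 2 of MM.1S MONO. A single PET on a 2 kb transcript was thus an RPKM between 0.0262 and 0.0555, a limit that covers counting error only. For replicate 2 of MM.1S MONO the paper lists fewer PETs on RefSeq transcripts than were recovered here. The highest count listed in the paper is that of replicate 2 of RPMI8226 CO. The cause of this difference was not tested. Each line has its own table and was fitted apart, so each test stayed within a line.

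Sugars such as glucose and fructose do not cross the plasma membrane on their own, and SLC2A (GLUT) proteins carry them down their concentration gradient. SLC2A1 and SLC2A3 carry mainly glucose, SLC2A5 carries fructose and is best known from the small intestine, and SLC2A13 carries myo-inositol together with protons. Inside the cell, hexokinases phosphorylate glucose, while ketohexokinase phosphorylates fructose so that aldolase can split it.

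Some libraries stood apart. The ribosomal protein pseudogene RPS14P3 had an RPKM of 84.2 in replicate 2 of MM.1S MONO, against 2.20 to 5.83 in the rest of the MM.1S libraries. It had 94.8 and 93.6 in the RPMI8226 TSW libraries, against 4.78 to 6.44 in the rest of that line. The same 3 libraries had 1.44, 2.22 and 1.53 RPKM of TRNN, a mitochondrial tRNA gene, against 82.3 to 587 in the other 12. Both genes were chosen after their values were seen. In RPMI8226 this trait and the TSW condition cannot be told apart, and its part in the results there was not tested. In MM.1S, SLC2A5 without MONO replicate 2 had a log2 fold change of 3.95 for TSW and 4.36 for CO against MONO, beside 3.95 and 4.35 with it. Replicate 1 of MM.1S MONO had the fewest PETs and the lowest mean correlation with its own condition (Pearson's r of 0.975 across genes, against 0.982 and 0.983 for the other MONO replicates). Without that library the values for SLC2A5 were 4.03 and 4.43. The genes of a library are not independent replicates.

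Of 8 plasma cell markers, 8 had an RPKM of at least 1 in each MM.1S library and 7 in each RPMI8226 library, and the most abundant was XBP1 or MZB1. Their levels moved with condition in both directions. The summed RPKM in MM.1S was 1770, 1530 and 1430 in MONO, 1840, 1880 and 1720 in TSW, and 1630, 1800 and 1570 in CO, and in RPMI8226 it was 961 and 971, 1730 and 1800, and 1480 and 1530. By mean RPKM, TNFRSF17 was 3.58-fold and 4.56-fold lower than MONO in TSW and CO of MM.1S and 13.1-fold and 17.5-fold lower in those of RPMI8226, where IRF4 was 1.94-fold and 1.92-fold lower. XBP1 was higher in both lines, by 1.83-fold and 1.71-fold in MM.1S and 2.37-fold and 2.12-fold in RPMI8226. CD38, a marker of the sort, was 2.86-fold and 3.31-fold higher in RPMI8226, and MZB1 2.09-fold and 1.70-fold.

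As a list, more stromal markers were above 0 in CO than in TSW. Of 28 stromal genes, 12 to 17 were above 0 in the MM.1S MONO libraries, 13 or 14 in TSW and 26, 26 and 27 in CO. Their summed RPKM was 32.5, 36.7 and 37.0 in MONO and 23.8, 23.5 and 24.5 in TSW, with CAV1 as the most abundant gene. In CO it was 180, 193 and 163, with MMP1 as the most abundant gene at 44.5, 46.9 and 41.0. In RPMI8226, 12 and 11 of the 28 were above 0 in MONO, 14 and 13 in TSW, and 26 and 26 in CO. RPMI8226 expressed FN1 itself at 3990 and 4310 RPKM in MONO, and the sum of the list was 4050 and 4370 in MONO, 1710 and 1990 in TSW and 2130 and 2340 in CO. Without FN1 the sums were 59.0 and 63.6 in MONO, 29.5 and 31.8 in TSW and 122 and 166 in CO.

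The 4 markers taken as defining were COL1A1, COL1A2, THY1 (which encodes CD90) and PDGFRB. COL1A2 was at 0 in the 10 MONO and TSW libraries of both lines and at 10.8, 13.4 and 10.2 RPKM in MM.1S CO and 4.05 and 5.85 in RPMI8226 CO. COL1A1 had 0.15, 0.0707 and 0.0762 in MM.1S MONO and 0.418 and 0.512 in RPMI8226 MONO, and THY1 had 0, 0.0219 and 0.0629 and then 0.0669 and 0.0282. In the TSW libraries COL1A1 lay between 0.0709 and 0.16 and THY1 between 0 and 0.0293, and in CO COL1A1 had 4.84, 6.37 and 5.18 in MM.1S and 0.94 and 1.41 in RPMI8226, and THY1 had 0.57, 0.489 and 0.453 and then 0.0767 and 0.111. PDGFRB did not separate CO from TSW in MM.1S, with 0.0508, 0.056 and 0.0345 in MONO, 0.118, 0.14 and 0.105 in TSW, and 0.152, 0.249 and 0.11 in CO, so TSW lay above MONO and overlapped CO. In RPMI8226 it had 0.0122 and 0.0103, 0.0247 and 0.034, and 0.0467 and 0.0487. The part of stromal RNA in the results of either coculture was not tested.

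SLC2A5 (Gene ID 6518) lies on the minus strand of chromosome 1. Its RefSeq promoter window in GRCh38.p14, from 250 bases before the start site to 50 bases from it on, is chr1:9069586-9069885. GENCODE places the window wholly inside the annotated SLC2A5 gene, with 50 bases in the exon that begins at this start site and 154 bases in an exon of another transcript. RefSeq windows were found for 6 of the 8 genes, and SLC2A3 and KHK are named only. The windows of SLC2A5 and of SLC2A1 (Gene ID 6513, minus strand, chr1:42958819-42959118) are shown because these were the most abundant SLC2A genes of the cocultures and of the monocultures. Capitals mark the letters TATAAA, and both sequences read 5′ to 3′ on the strand of the gene.

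SLC2A5: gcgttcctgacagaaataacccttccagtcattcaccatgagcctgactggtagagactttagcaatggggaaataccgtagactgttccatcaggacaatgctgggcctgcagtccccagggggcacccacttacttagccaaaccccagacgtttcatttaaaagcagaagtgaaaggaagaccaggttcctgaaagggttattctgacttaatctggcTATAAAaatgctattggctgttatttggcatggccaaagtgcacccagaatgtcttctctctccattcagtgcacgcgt

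SLC2A1: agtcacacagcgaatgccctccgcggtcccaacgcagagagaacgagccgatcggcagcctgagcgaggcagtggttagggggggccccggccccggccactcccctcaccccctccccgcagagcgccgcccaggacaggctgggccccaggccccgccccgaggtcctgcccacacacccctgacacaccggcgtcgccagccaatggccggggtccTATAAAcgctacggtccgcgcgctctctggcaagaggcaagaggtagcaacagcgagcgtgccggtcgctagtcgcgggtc

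Both windows hold TATAAA a short way before the start site, its first base at -29 in SLC2A5 and -31 in SLC2A1, and 11.5% of the 35116 windows in all hold it at any position. These letters were added to the search after the windows had been seen. The search covered 4 other motifs on both strands, with their share of all windows: TGANTCA of AP-1 (7.71%), TTCNNNGAA of STAT factors (7.66%), the E-box CACGTG (7.26%) and the hypoxia response core ACGTG (21.4%), which CACGTG contains. The SLC2A5 and SLC2A1 windows hold none of these 4, SLC2A10 holds ACGTG at -73, SLC2A13 holds CACGTG at -25, and SLC2A6 and SLC2A8 hold none of the 5 motifs. A match is not a site in use, and a missing match says only that the letters are not in the window. GC content was 47.7% in SLC2A5, below the median of 58.7% over all windows, and between 67% and 78% in the other 5 genes. The SLC2A1 window also overlaps the start of SLC2A1-DT on the opposite strand. A noncoding RNA gene on the same strand as SLC2A1, ENSG00000283973, covers 54 bases of the window. Whether PETs were counted by strand is not known.

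SLC2A5 RNA was higher in both cocultures than in monoculture, and it was scarce in MM.1S MONO. In MM.1S MONO its RPKM was 0.803, 0.622 and 0.422. In TSW it was 24.7, 24.4 and 22.4, and in CO it was 30.0, 33.4 and 32.1. The order was MONO, TSW, CO with no overlap between conditions, and MONO was far below the other two. The MONO values rest on 22, 36 and 17 PETs and the coculture values on 892 to 1556.

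In RPMI8226 the RPKM of SLC2A5 was 7.38 and 9.09 in MONO. In TSW it was 168 and 167, and in CO it was 151 and 149. The order here was MONO, CO, TSW, again without overlap, and the step from CO to TSW was small beside the step from MONO. Between the lines the level in MONO was higher in RPMI8226, a difference that was not tested.

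On the log2(RPKM + 1) scale, SLC2A5 was higher in TSW than in MONO by 3.95 ± 0.11 (SE, n = 3 per condition) in MM.1S and by 4.19 ± 0.09 (n = 2) in RPMI8226. For CO vs MONO the log2 fold changes were 4.35 ± 0.11 and 4.04 ± 0.09. TSW vs MONO and CO vs MONO share their MONO libraries, so they are not separate evidence. As ratios of mean RPKM, TSW was 38.7-fold and CO 51.7-fold above MONO in MM.1S, and 20.3-fold and 18.3-fold in RPMI8226. The ratio in MM.1S rests on a MONO mean of 0.615 ± 0.191 (SD, n = 3), and the log2 fold change there was 5.10 in TSW and 5.51 in CO with a pseudocount of 0.1. The ratio of mean RPKM in CO to that in TSW was 1.33 in MM.1S and 0.899 in RPMI8226.

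CO vs TSW asks what contact adds to soluble factors. SLC2A5 differed there by 0.40 ± 0.11 in MM.1S and by -0.15 ± 0.09 in RPMI8226, neither of which passed the 1.5-fold threshold. The directions were opposite, and the difference between the lines was not tested. More cells expressing a gene and more RNA per cell cannot be told apart in bulk libraries.

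SLC2A5 rose in rank in both lines. By RPKM it ranked between 10194 and 11014 of 20468 genes in MM.1S MONO, between 2746 and 2987 in TSW and between 2068 and 2249 in CO. In RPMI8226 its rank was 6194 and 5540 in MONO, 344 and 350 in TSW and 364 and 365 in CO.

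**Figure D1:**
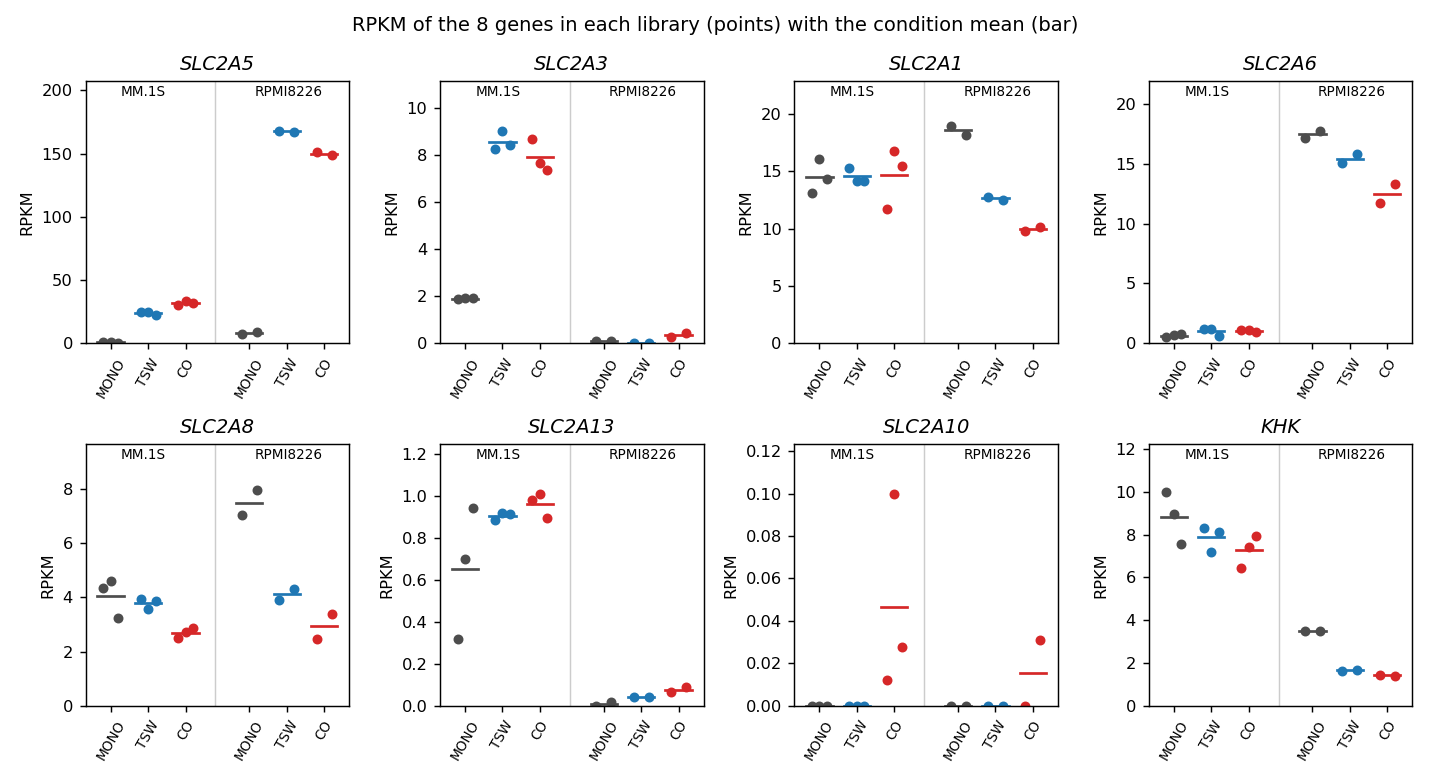
RPKM (vertical axes, each with its own scale starting at 0) of the 8 genes in each of the 15 libraries by cell line and condition, with points for libraries and bars for condition means. SLC2A5 lies at 0.422 to 0.803 in MM.1S MONO and 7.38 and 9.09 in RPMI8226 MONO, and no MONO point reaches a TSW or CO point of the same line.

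Differential expression was tested with limma over all genes whose RPKM averaged 1 or more in the line. Called genes had both an adjusted p (Benjamini-Hochberg) below 0.05 and a change of more than 1.5-fold. In each line 5 of the 8 genes passed this filter: SLC2A1, SLC2A3, SLC2A5, SLC2A8 and KHK in MM.1S, and SLC2A1, SLC2A5, SLC2A6, SLC2A8 and KHK in RPMI8226. SLC2A5, with a mean RPKM of 0.615 in MM.1S MONO, passed there through its level in coculture. In MM.1S, 2 of the 5 were called for TSW vs MONO, where 10.6% of the 10153 genes tested were called, and 2 in CO vs MONO, where 11.8% were. In RPMI8226, 3 of the 5 were called in TSW vs MONO, where 32.5% of the 10319 genes tested were called, and 4 in CO vs MONO, where 39.3% were. In CO vs TSW, 0 of the 5 were called by limma or by voom in either line, beside 0.414% of genes in MM.1S and 4.29% in RPMI8226. Nothing is read from these counts, since the genes were chosen on these contrasts. Among all genes called in RPMI8226 CO vs TSW, 196 were higher and 247 lower. Median-of-ratios scaling turned this split to 241 higher and 176 lower. Leaving out 1 library moved that count of 443 to as many as 719, without TSW replicate 1.

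**Figure D2:**
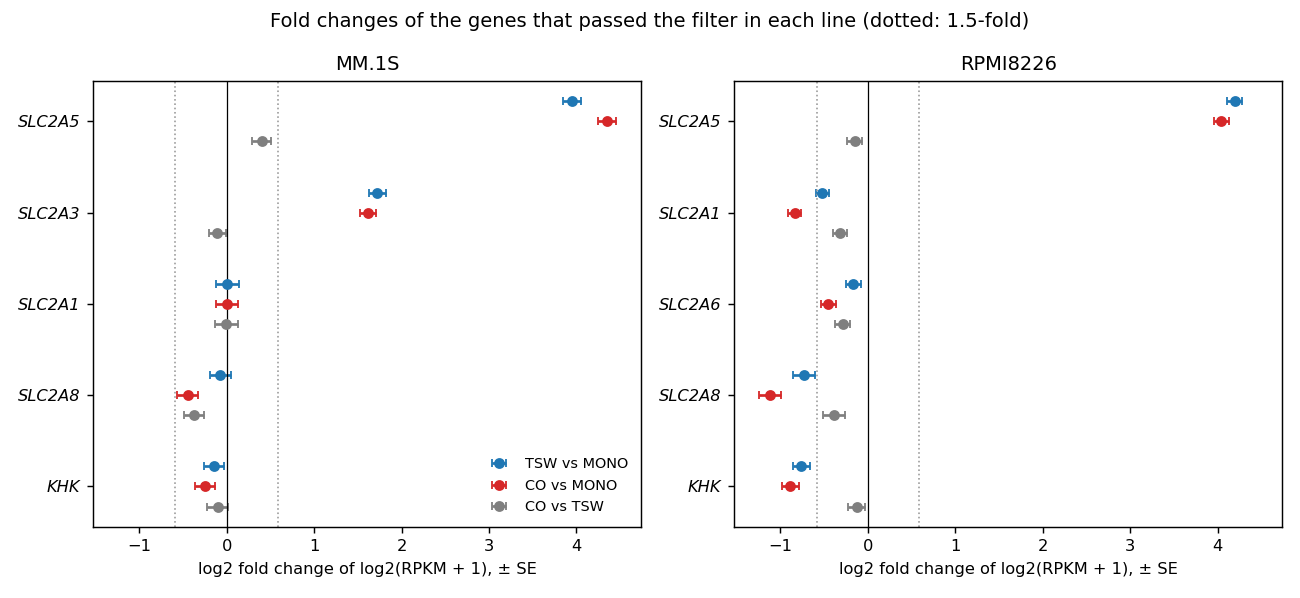
Fold changes of log2(RPKM + 1) with standard errors (horizontal axis) for the genes that passed the filter in MM.1S and RPMI8226, in TSW vs MONO, CO vs MONO and CO vs TSW, with dotted lines at 1.5-fold. SLC2A5 lies between 3.95 and 4.35 in the comparisons with MONO, and the other genes lie between -1.12 and 1.72.

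SLC2A3 (Gene ID 6515), a high-affinity glucose transporter, was higher in coculture in MM.1S and nearly silent in RPMI8226. In MM.1S its RPKM was 1.86, 1.92 and 1.90 in MONO, 8.23, 9.02 and 8.42 in TSW, and 8.66, 7.65 and 7.37 in CO. TSW and CO overlapped, and both lay above MONO. The log2 fold change was 1.72 ± 0.09 (SE, n = 3) for TSW and 1.62 ± 0.09 for CO, both against the same MONO libraries, or 4.52-fold and 4.17-fold in mean RPKM. CO vs TSW gave -0.11 ± 0.09.

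In RPMI8226, SLC2A3 had 4 and 6 PETs in MONO, 0 and 1 in TSW, and 16 and 31 in CO. It did not pass the filter there and no fold change is given. Its CO values, 0.249 and 0.419 RPKM, appeared in the libraries that also held stromal RNA, and the part of that RNA was not tested. SLC2A14 is a close paralog of SLC2A3, so PETs may be shared out between them uncertainly, and SLC2A14 had between 0 and 3 PETs in the 15 libraries.

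SLC2A1, the widespread basal glucose transporter, was the most abundant SLC2A gene in the 5 MONO libraries. In MM.1S its RPKM was 13.1, 16.1 and 14.3 in MONO, 15.3, 14.2 and 14.2 in TSW, and 11.7, 16.8 and 15.5 in CO. The 3 conditions overlapped, and the log2 fold changes were 0.01 ± 0.13 for TSW and 0.01 ± 0.13 for CO, both against MONO. The first of these, and CO vs TSW at -0.002, took the other sign with median-of-ratios scaling, at -0.001 and 0.003.

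In RPMI8226, SLC2A1 had an RPKM of 19.0 and 18.2 in MONO, 12.8 and 12.5 in TSW, and 9.79 and 10.1 in CO. The conditions fell in that order without overlap. CO vs MONO gave -0.84 ± 0.08 (SE, n = 2), TSW vs MONO gave -0.52 ± 0.08, short of the 1.5-fold threshold, and CO vs TSW gave -0.32 ± 0.08. The difference between the lines was not tested.

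SLC2A6 and SLC2A8 encode transporters found largely on internal membranes. SLC2A6 (Gene ID 11182) had an RPKM of 17.2 and 17.8 in RPMI8226 MONO, 15.1 and 15.8 in TSW, and 11.7 and 13.3 in CO. It stepped down in that order without overlap, by -0.17 ± 0.09 for TSW and -0.45 ± 0.09 for CO against MONO, neither past 1.5-fold. In MM.1S it lay near the minimum of the filter, at 0.493 to 0.746 in MONO, 0.598 to 1.19 in TSW and 0.914 to 1.09 in CO, and was not tested.

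SLC2A8 (Gene ID 29988) had an RPKM of 7.04 and 7.95 in RPMI8226 MONO, 3.89 and 4.33 in TSW, and 2.46 and 3.40 in CO. The libraries separated by condition, with MONO highest. Against MONO, the log2 fold changes were -0.73 ± 0.13 (SE, n = 2) for TSW and -1.12 ± 0.13 for CO. In MM.1S it had 4.35, 4.59 and 3.25 in MONO, 3.95, 3.56 and 3.87 in TSW, and 2.49, 2.72 and 2.87 in CO. MONO and TSW overlapped, and CO lay below both by -0.45 ± 0.12 against MONO and -0.38 ± 0.12 against TSW. The change against MONO was not called on this scale and was called with voom on PETs, at -0.587.

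SLC2A13 (Gene ID 114134), the proton-coupled myo-inositol transporter, had 0.318, 0.698 and 0.943 RPKM in MM.1S MONO, 0.886, 0.917 and 0.913 in TSW and 0.979, 1.01 and 0.895 in CO. The conditions overlapped, and the lowest value came from MONO replicate 1, the library with the fewest PETs. In RPMI8226 it had 0 and 2 PETs in MONO, 6 and 6 in TSW and 8 and 13 in CO. SLC2A10 (Gene ID 81031) was not detected in the 10 MONO and TSW libraries. It had 1, 8 and 2 PETs in MM.1S CO and 0 and 3 in RPMI8226 CO, the condition that held stromal RNA, whose part was not tested. Neither gene was tested in either line.

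KHK (Gene ID 3795), whose enzyme phosphorylates fructose after its transport, had no positive log2 fold change in the 6 comparisons. In MM.1S its RPKM was 9.98, 8.94 and 7.58 in MONO, 8.32, 7.17 and 8.12 in TSW, and 6.44, 7.43 and 7.93 in CO. The conditions overlapped, and the log2 fold changes were -0.14 ± 0.12 and -0.25 ± 0.12 in TSW and CO vs MONO. In RPMI8226 it had 3.49 and 3.51 in MONO, 1.63 and 1.68 in TSW, and 1.46 and 1.41 in CO, in steps that did not overlap. There TSW vs MONO gave -0.76 ± 0.10 (SE, n = 2) and CO vs MONO gave -0.89 ± 0.10. The direction was thus opposite to that of SLC2A5 in the same RPMI8226 libraries.

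RPKM is scaled to transcript length, so the 14 SLC2A genes of the tables can be added within a library. In MM.1S this sum was 26.7 ± 2.02 (SD, n = 3) for MONO, 57.0 ± 2.03 for TSW and 63.6 ± 4.19 for CO. SLC2A5 held 2.31 ± 0.733% of it in MONO, 41.8 ± 0.814% in TSW and 50.0 ± 0.611% in CO. In RPMI8226 the sum was 55.6 ± 2.19 (SD, n = 2) for MONO, 204.5 ± 0.707 for TSW and 181.5 ± 0.707 for CO, with 14.8 ± 1.56%, 81.9 ± 0.141% and 83.1 ± 1.13% from SLC2A5.

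The most abundant SLC2A gene was SLC2A1 in the 5 MONO libraries and SLC2A5 in the 10 others. Without SLC2A5 the sum in MM.1S came to 26.1 ± 1.94 for MONO, 33.1 ± 0.751 for TSW and 31.8 ± 2.47 for CO. In RPMI8226 it came to 47.3 ± 0.99 for MONO, 37.0 ± 0.0707 for TSW and 30.6 ± 2.12 for CO. So the remaining transporters together were above MONO in the MM.1S cocultures and below it in those of RPMI8226. With median-of-ratios scaling the means without SLC2A5 were 26.0, 32.8 and 31.7 in MM.1S and 45.1, 37.1 and 31.6 in RPMI8226, in the same order.

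**Figure D3:**
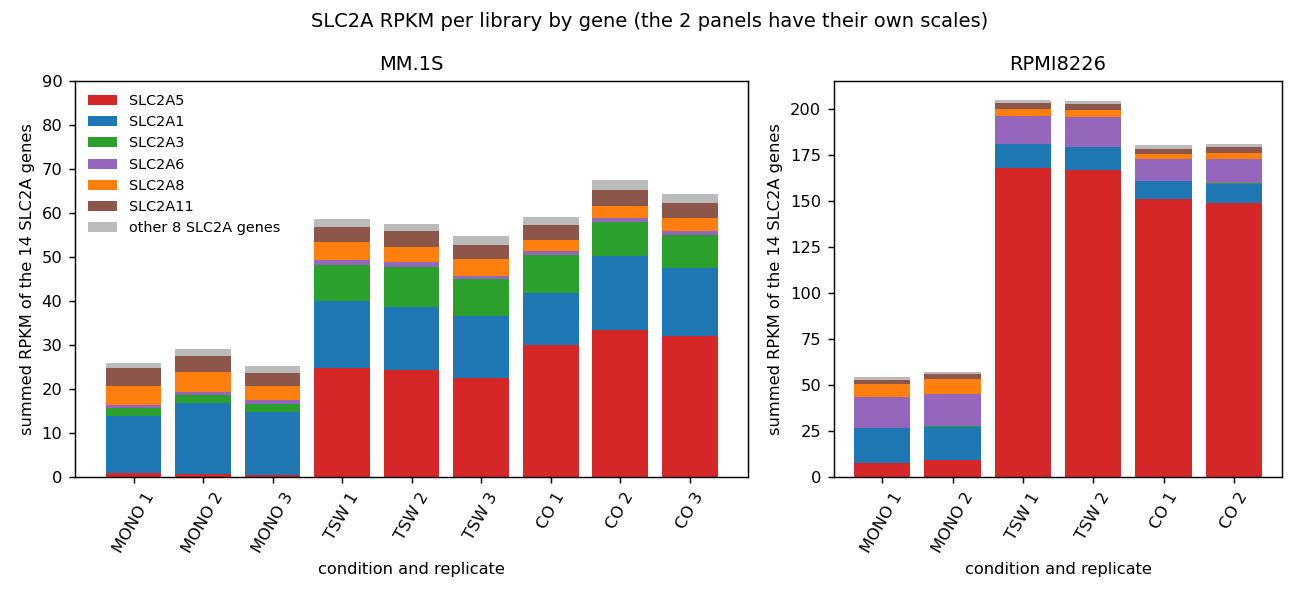
Stacked RPKM of the 14 SLC2A genes in each library (vertical axis, from 0, with its own scale per cell line) by condition and replicate. The part of SLC2A5 grows from 1.67 to 3.11% of the sum in MM.1S MONO to 40.9 to 50.7% in the cocultures, and from 13.7 and 15.9% in RPMI8226 MONO to 81.8 to 83.9%.

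Other genes of sugar entry and use were followed as lists and tested with limma over all genes. The lists were chosen with earlier results of these data known, so their p-values are not independent evidence. The 7 remaining SLC2A genes were mostly silent. SLC2A2 had no PET in any library, and SLC2A7, SLC2A4 and SLC2A9 had at most 1, 31 and 46 PETs. SLC2A11 passed the filter in both lines and was not called, with log2 fold changes against MONO from -0.04 to 0.26. SLC2A12 was called in RPMI8226 CO vs MONO, where its RPKM went from 0.437 ± 0.0125 (SD, n = 2) to 1.52 ± 0.0633, or 0.81 ± 0.11 in log2 (adjusted p = 6.14e-05). Like SLC2A5 in MM.1S, it passed the filter only through its level in coculture, and it was also called with no filter. For TSW it had 0.57 (adjusted p = 0.000946), and it was called with a pseudocount of 0.1 (1.19), median-of-ratios scaling (0.59) or voom (1.35), or without TSW replicate 2 (0.65). The median over the list in RPMI8226 CO vs MONO was 0.49 over 2 genes, beside -0.09 over all genes, which median-of-ratios scaling moved to 0.56 and 0.01.

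Of 9 sodium-coupled and other sugar or inositol transporters, 4 passed the filter in MM.1S with 0 called by limma in each comparison. There 2, 3 and 1 had an unadjusted p under 0.05 in TSW vs MONO, CO vs MONO and CO vs TSW, and voom called 1, 0 and 0. In RPMI8226 3 passed, and SLC50A1 was called higher in both comparisons with MONO, where 32.5% and 39.3% of all genes were called. Its product exports sugar, and MONO had an RPKM of 38.3 ± 1.15 (SD, n = 2), against 68.1 ± 2.49 in TSW and 61.7 ± 0.736 in CO, with adjusted p = 2.58e-06 and 7.30e-06 against MONO. In MM.1S the same gene had 15.5 ± 3.46, 23.1 ± 2.99 and 20.9 ± 2.23, and it was called without MONO replicate 1 (0.73 and 0.59) and, for TSW, without TSW replicate 3 (0.64), with a pseudocount of 0.1 (0.591) or with voom (0.615). The inositol transporter SLC5A3 was not called, with values from -0.21 to 0.49, except in MM.1S CO vs MONO without MONO replicate 3 (0.67) and in RPMI8226 CO vs TSW without CO replicate 1 (0.66). SLC5A10 was not called, with -0.29 and -0.24 against MONO in MM.1S. The glucose-6-phosphate transporter SLC37A4 had 0.48 in MM.1S TSW vs MONO and -0.41 in RPMI8226 CO vs TSW. The list medians against MONO were 0.36 and 0.33 in MM.1S and 0.20 and 0.25 in RPMI8226, beside 0.01, 0.01, -0.08 and -0.09 over all genes.

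Of 8 genes of fructose and polyol metabolism beside KHK, all 8 passed in MM.1S, with 1 called higher in each comparison with MONO (10.6% and 11.8% of all genes were called). In RPMI8226 7 passed, with 2 higher and 1 lower in TSW vs MONO (32.5% of all genes were called) and 1 higher and 1 lower in CO vs MONO (39.3%). The aldolase gene ALDOC rose in both lines. MM.1S had an RPKM of 15.9 ± 1.45 (SD, n = 3) in MONO, 27.4 ± 1.14 for TSW and 24.8 ± 2.66 for CO, and in RPMI8226 it was 19.8 ± 1.34 (n = 2), 60.3 ± 8.54 and 56.1 ± 0.0663. The adjusted p of ALDOC against MONO was 0.00037 and 0.00148 in MM.1S and 3.12e-07 and 3.38e-07 in RPMI8226. The call in MM.1S CO vs MONO (0.61 in log2) was lost without MONO replicate 2 (0.58), MONO replicate 3 (0.57) or CO replicate 2 (0.53).

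SORD, whose enzyme makes fructose from sorbitol, fell in RPMI8226 from 16.6 ± 1.30 RPKM (SD, n = 2) in MONO to 3.60 ± 0.0353 in TSW and 2.77 ± 0.21 in CO (adjusted p = 7.00e-08 and 2.00e-08). In MM.1S it had 3.48 ± 0.199 (n = 3), 3.16 ± 0.403 and 2.87 ± 0.0968 and was not called. TKFC, the gene of triokinase, which phosphorylates glyceraldehyde from fructose, was called higher in RPMI8226 TSW vs MONO at 0.77 ± 0.09 (adjusted p = 2.40e-05). In CO vs MONO it had 0.57, just short of the threshold, and it was called there with a pseudocount of 0.1 (0.612), median-of-ratios scaling (0.67) or voom (0.62), or without CO replicate 1 (0.65). AKR1B1, ALDOA, GLYCTK and FBP1 were not called, with log2 fold changes against MONO from -0.44 to 0.55. FBP1 was called higher in RPMI8226 TSW vs MONO with a pseudocount of 0.1 (0.597), median-of-ratios scaling (0.62), voom (0.593), without MONO replicate 2 (0.65) or without TSW replicate 1 (0.66). The list medians against MONO were -0.10 and -0.18 in MM.1S and -0.12 and -0.44 in RPMI8226, beside the same medians over all genes as above.

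Of 7 hexose kinase genes, HK1, HK2 and ADPGK passed in MM.1S and HK2 and ADPGK in RPMI8226, and limma and voom called 0 in each comparison. In MM.1S 1, 2 and 0 of the 3 had an unadjusted p under 0.05 for TSW vs MONO, CO vs MONO and CO vs TSW, and in RPMI8226 0, 0 and 1 of the 2. HK2 had an RPKM of 18.6 ± 5.03 (SD, n = 3) in MM.1S MONO, 27.1 ± 1.06 in TSW and 26.9 ± 1.82 in CO, with adjusted p = 0.031 and 0.0303 at 0.55 and 0.54, under the fold threshold. It was called in MM.1S without MONO replicate 2 (0.67 and 0.66) or without MONO replicate 3 (0.67 and 0.66). In RPMI8226 HK2 had 18.7 ± 0.177 (n = 2), 17.0 ± 1.41 and 16.4 ± 0.492. HK1 had 4.87 ± 0.619 (n = 3), 5.69 ± 0.218 and 6.59 ± 0.133 in MM.1S, and in RPMI8226 it was at 0 in MONO, at 0 and 0.0222 in TSW and at 0.391 and 0.594 in CO, the condition with stromal RNA. ADPGK lay between 28.6 and 36.7 in the 15 libraries. The list medians against MONO were 0.19 and 0.38 in MM.1S and 0.01 and -0.17 in RPMI8226.

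Of 7 genes of galactose and mannose entry, 7 passed in each line. In MM.1S limma and voom called 0 in each comparison, beside 5, 3 and 0 genes with an unadjusted p under 0.05 for TSW vs MONO, CO vs MONO and CO vs TSW. There GALM and MPI had adjusted p under 0.05 in TSW vs MONO (0.0261 and 0.0205) at fold changes under 1.5. In RPMI8226, GALM was called higher and MPI lower in both comparisons with MONO, beside 32.5% and 39.3% of all genes. GALM, whose enzyme interconverts the anomers of hexoses, rose there from 17.6 ± 1.10 RPKM (SD, n = 2) in MONO to 89.1 ± 5.75 in TSW and 88.1 ± 0.716 in CO, with adjusted p = 4.34e-09 and 3.92e-09. In MM.1S it had 39.7 ± 7.93 (n = 3), 54.2 ± 5.15 and 57.4 ± 2.77, and without MONO replicate 1 it was called at 0.605 and 0.69. MPI, whose enzyme joins mannose-6-phosphate to glycolysis, fell in RPMI8226 from 19.9 ± 0.74 to 3.67 ± 0.61 in TSW and 3.28 ± 0.377 in CO, with adjusted p = 9.06e-08 and 4.49e-08. In MM.1S it had 12.9 ± 1.20, 17.2 ± 1.72 and 15.6 ± 0.979.

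GALK1, GALT, PMM1 and PMM2 were not called, with values against MONO from -0.43 to 0.52. GALK1 was called lower in RPMI8226 CO vs TSW without TSW replicate 1 (-0.65) or without CO replicate 2 (-0.66), from -0.54 with both, and PMM1 was called in TSW vs MONO there without MONO replicate 1 (0.59). The list medians against MONO were 0.35 and 0.26 in MM.1S and -0.03 and -0.31 in RPMI8226, and the median in RPMI8226 TSW vs MONO was 0.03 with median-of-ratios scaling.

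Of 22 glycolysis genes after the hexose kinase step, 19 passed in MM.1S, where ALDOC, shared with the fructose list, was the 1 called higher in each comparison with MONO, beside 10.6% and 11.8% of all genes called. In RPMI8226 20 passed, with 3 higher and 2 lower in TSW vs MONO, where 32.5% of all genes were called, and 4 higher and 5 lower in CO vs MONO, where 39.3% were. The higher genes beside ALDOC were PFKFB4 (0.95 and 0.90), whose enzyme sets the level of fructose-2,6-bisphosphate and which, at 0.68 RPKM in MONO, passed the filter through its cocultures and was also called without it, the lactate exporter gene SLC16A3 (0.66 and 0.63) and, in CO, the kinase gene PDK1 (0.63). The SLC16A3 calls were lost without TSW replicate 2 (0.56) and without CO replicate 2 (0.58). PFKFB3 had 0.54 in CO vs MONO and was called with a pseudocount of 0.1 (0.587), median-of-ratios scaling (0.64), voom (0.601), without MONO replicate 1 (0.64) or without CO replicate 1 (0.637).

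The lower genes were PGAM1 (-1.21 and -0.64) and the monocarboxylate transporter gene SLC16A1 (-0.86 and -0.92) and, in CO, PFKM (-0.75), ENO1 (-0.62) and LDHB (-0.91). With median-of-ratios scaling PGAM1 at -0.53 and ENO1 at -0.50 were no longer called in CO vs MONO, ENO1 was also lost without CO replicate 1 (-0.57), and PGAM1 was called higher in CO vs TSW (0.61), as it was without TSW replicate 1 (0.585). TPI1 had -0.51 in TSW vs MONO and was called lower without TSW replicate 2 (-0.585). Adjusted p for the genes called ranged from 1.23e-07 for PGAM1 to 0.000109 for PDK1 in RPMI8226. The list medians against MONO were 0.10 and 0.06 in MM.1S and 0.05 and -0.11 in RPMI8226, the last 0.01 with median-of-ratios scaling.

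Of 8 regulators of hexose transporters, 7 passed in MM.1S with 2 called higher in each comparison with MONO, and 6 in RPMI8226 with 2 higher and 1 lower. Over all genes, 10.6% and 11.8% were called in MM.1S and 32.5% and 39.3% in RPMI8226. TXNIP, whose protein promotes the removal of SLC2A1 from the membrane and responds to glucose, rose in both lines. MM.1S had an RPKM of 29.5 ± 2.45 (SD, n = 3) in MONO, 64.5 ± 1.82 for TSW and 69.7 ± 3.16 for CO, and in RPMI8226 it was 31.8 ± 1.24 (n = 2), 196 ± 29.8 and 290.4 ± 5.20. The adjusted p of TXNIP against MONO was 7.32e-06 and 3.32e-06 in MM.1S and 8.15e-09 and 1.84e-09 in RPMI8226. In RPMI8226 CO vs TSW it had 0.58 and was called with median-of-ratios scaling (0.615), without TSW replicate 1 (0.73) or without CO replicate 2 (0.59).

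HIF1A, the oxygen-regulated factor subunit, also rose in both lines, from 7.81 ± 3.72 (SD, n = 3) to 18.0 ± 1.49 in TSW and 16.6 ± 0.188 in CO in MM.1S, and from 21.5 ± 0.0567 (n = 2) to 109.9 ± 7.74 and 132 ± 2.67 in RPMI8226. The log2 fold changes in MM.1S were 1.22 (adjusted p = 0.00804) and 1.11 (adjusted p = 0.0121), and without MONO replicate 1 they were 0.79 and 0.68 and still called. In RPMI8226 they were 2.30 and 2.57 (adjusted p = 2.57e-09 and 1.04e-09). TBC1D4, which holds back transporter vesicles, was lower in RPMI8226 at -0.91 and -1.15 (adjusted p = 1.00e-05 and 1.30e-06) and uncalled in MM.1S at -0.15 and 0.13. ARRDC4, MLXIP, MLX and TBC1D1 were not called, with values against MONO from -0.22 to 0.35. The list medians against MONO were 0.16 and 0.15 in MM.1S and 0.32 and 0.16 in RPMI8226. For CO vs TSW, limma and voom called 0 of the 47 genes of the 7 lists that passed in MM.1S and 0 of the 45 in RPMI8226, where limma called 0.414% and 4.29% of all genes. An unadjusted p under 0.05 was found for 1 and 22 of them, and for 4.43% and 40.4% of all genes. In RPMI8226 some had an adjusted p under 0.05 at fold changes under 1.5, such as PGAM1 (0.57, adjusted p = 0.000365) and TXNIP (adjusted p = 0.00214).

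**Figure D4:**
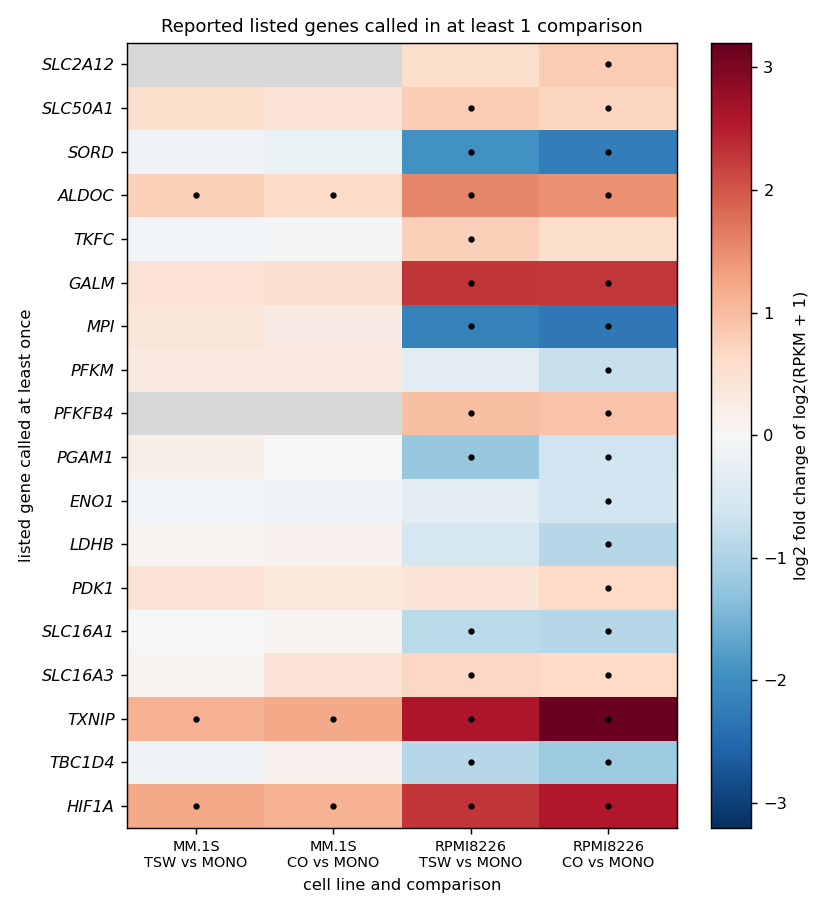
Color shows the log2 fold change of log2(RPKM + 1) for listed genes called at least once (vertical axis) in the 4 comparisons with MONO (horizontal axis), with dots where a gene was called and gray where it did not pass the filter. ALDOC, TXNIP and HIF1A are higher than MONO in both lines, and MPI stands at -2.17 and -2.29 in RPMI8226.

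Genes with a pattern like that of SLC2A5 were taken by Pearson's r of log2(RPKM + 1) with SLC2A5 over the 9 MM.1S libraries, among 301 genes with an absolute log2 fold change of at least 1 in TSW vs MONO. The highest were SERPINB1, a protease inhibitor gene (r = 0.999), the cytokine gene IL32 (r = 0.997), DDIT4, an inhibitor of mTORC1 signaling (r = 0.997), SOCS3, a feedback inhibitor of cytokine signaling (r = 0.997), and the ubiquitin ligase gene ZNRF1 (r = 0.996). The points form a MONO cluster and a coculture cluster, so r describes that split and has no p. Over the 6 RPMI8226 libraries, which were not used in the choice, r was 0.999, 0.991, 0.999, 0.996 and 0.994 in the same order. These libraries split into the same clusters, so r describes that split here too. The share of all genes with such an r was not counted.

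RPMI8226 also allows a test of these genes, and the 5 were called higher in TSW and in CO than in MONO, as were 1500 and 1693 of the 10319 genes tested. SOCS3 went from 1.82 and 1.31 RPKM in MONO to 50.9 and 53.8 in TSW and 50.5 and 53.1 in CO, or 4.39 ± 0.10 (adjusted p = 3.12e-10) and 4.37 ± 0.10 (adjusted p = 3.08e-10). DDIT4 went from 39.9 and 43.3 to 458 and 428 in TSW and 428 and 433 in CO, or 3.38 ± 0.07 (adjusted p = 1.86e-10) and 3.34 ± 0.07 (adjusted p = 1.82e-10). SERPINB1, IL32 and ZNRF1 had 3.22, 2.86 and 0.69 in TSW vs MONO. In CO vs MONO they had 3.15, 3.17 and 0.60. SLC2A5 at 4.19 and 4.04 lay within the range of these genes.

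**Figure D5:**
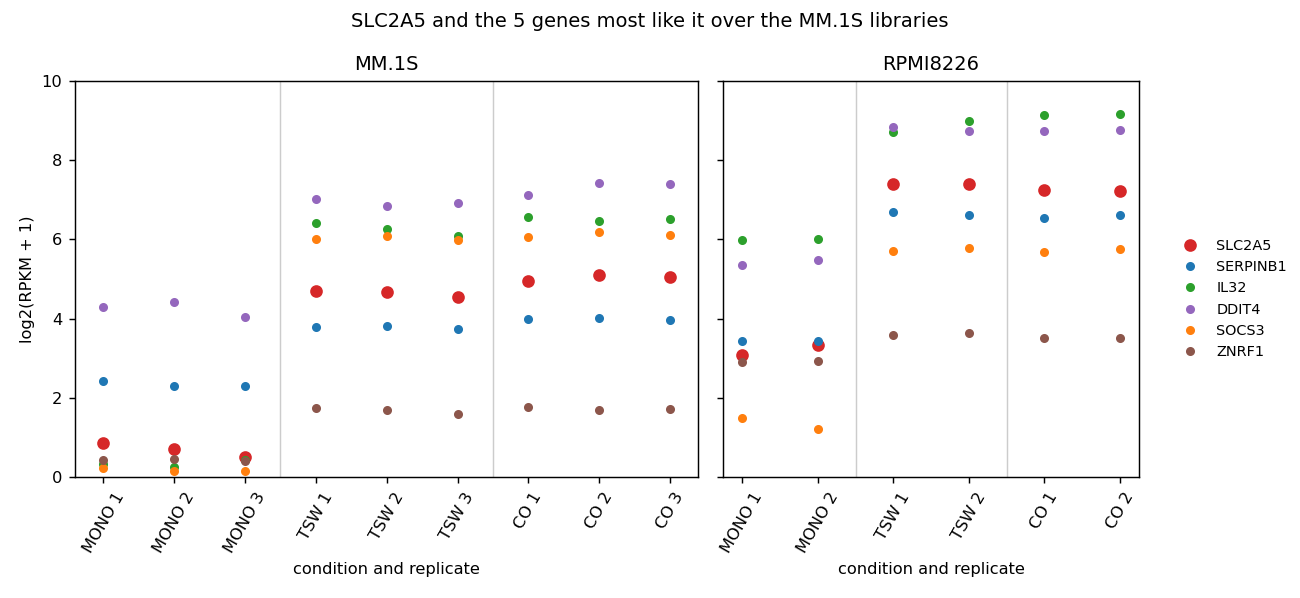
Values of log2(RPKM + 1) (vertical axis) of SLC2A5 and the 5 genes most like it over the MM.1S libraries, by condition and replicate (horizontal axis) in MM.1S and RPMI8226. Each gene steps up from MONO to TSW and CO, by 5.86 in log2 in TSW vs MONO for SOCS3 in MM.1S and by 0.69 for ZNRF1 in RPMI8226.

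The genes beside SLC2A5 on chromosome 1 did not share its levels. SLC2A7, 8683 bases away on the side of lower coordinates, had 1 PET in replicate 2 of RPMI8226 MONO and 0 in the other 14 libraries. GPR157, 6110 bases away on the other side, had 0 to 3 PETs in MM.1S MONO, 5 to 8 in TSW and 2 to 11 in CO. In RPMI8226 its RPKM was 1.54 and 1.49 in MONO, 2.55 and 3.61 in TSW, and 2.11 and 3.35 in CO. MONO lay below both cocultures there, which overlapped. GPR157 was called higher in TSW vs MONO at 0.69 ± 0.17 (adjusted p = 0.0041), a call lost without TSW replicate 2 (0.50). In CO vs MONO it had 0.55 (adjusted p = 0.0126), under the fold threshold, and was called with a pseudocount of 0.1 (0.772), median-of-ratios scaling (0.62) or voom (0.822), or without CO replicate 1 (0.79). RN7SL451P and MIR34AHG, the next genes outward on either side, are named only.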

How the data were processed

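RNA-Seq of MM.1S and RPMI8226 in MONO, TSW and CO was used, 15 libraries grouped by the labels. The authors aligned paired reads to hg38 with Subread, counted them per RefSeq gene with featureCounts and deposited log2 values, which are log2 of RPKM + 1 with 0.0001 added. This offset was subtracted. Spacing of the values within libraries gave back the PETs, and 100% lay within 0.05 of a whole number. limma 3.58.1 in R 4.3.3 (lmFit, contrasts.fit, eBayes with a trend) was fitted per line to log2(RPKM + 1) of genes averaging an RPKM of 1 or more, the 3 conditions in 1 fit and p-values adjusted per comparison. Python 3.11.15, numpy 2.4.6, pandas 2.3.3 and matplotlib 3.10.9 did the rest.

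The members and lists were chosen with earlier results of these data known. Named are the 8 members, listed genes called under any setting, genes that passed the filter or belong to SLC2A in lists under 10 genes, the 5 genes most like SLC2A5, 2 neighbors on each side and the most abundant markers. Others were chosen after their values were seen. Some listed genes are not reported here.

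Alternatives were no filter, a mean RPKM of at least 5, a pseudocount of 0.1, median-of-ratios scaling, only the 2 conditions compared, replicate number as a block, voom on PETs and each library left out. Where this leaves 1 library in a condition, it is assumed to vary like the others.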

Additional observations from a re-analysis of the deposited data

Results flagged for a closer look

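The differences below ran in opposite directions in the cell lines, with each library of one condition on the same side of each library of the other. How many of all genes do the same was not counted, so nothing is read from their number. These were taken from mean RPKM, and in no case was the difference between the lines tested. SLC2A5 in CO minus TSW was 7.97 in MM.1S and -16.9 in RPMI8226. SLC2A3 in TSW minus MONO was 6.66 in MM.1S and -0.0851 in RPMI8226, where it had 0 to 6 PETs per library in these conditions. SLC2A6 in CO minus MONO was 0.388 in MM.1S and -4.97 in RPMI8226. In MM.1S it did not pass the filter and had 13 to 51 PETs per library in these conditions.

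MPI in TSW minus MONO was 4.24 in MM.1S and -16.3 in RPMI8226. In CO minus MONO it was 2.68 in MM.1S and -16.7 in RPMI8226. Conditions of 2 or 3 libraries are too small to test a single library as far from the others.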

How the results depend on the processing

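The SLC2A5 log2 fold changes kept their sign under each alternative that gave a value, and against MONO they stayed past 1.5-fold. With a pseudocount of 0.1 and with voom they were 5.10 and 5.32 in MM.1S TSW vs MONO, 5.51 and 5.74 in MM.1S CO vs MONO, 4.34 and 4.34 in RPMI8226 TSW vs MONO, and 4.18 and 4.19 in RPMI8226 CO vs MONO. A smaller constant compresses low values less, which moves these up by construction. Median-of-ratios scaling gave -0.11 in RPMI8226 CO vs TSW, and the cause was not tested. With each library left out in turn, SLC2A5 ranged over 3.86 to 4.03, 4.26 to 4.43 and 0.36 to 0.44 in MM.1S and 4.06 to 4.33, 3.91 to 4.18 and -0.16 to -0.14 in RPMI8226 (TSW vs MONO, CO vs MONO, CO vs TSW).

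Called genes in MM.1S CO vs TSW numbered 134 with no filter and 7 with a mean RPKM of at least 5, and in RPMI8226 CO vs TSW 672 with voom, and the causes were not tested. Left-out libraries gave 967 to 1493, 969 to 1702, 28 to 53, 3286 to 3415, 4006 to 4100 and 321 to 719 called genes in the 6 comparisons. For the other members, 26 of 159 values moved by more than the spread between replicates and 0 of 180 did with a library left out. Of the values of called listed, similar and neighboring genes, 3 of 400 and 9 of 393 fell under the threshold. Genes under a mean RPKM of 5 have no value with that filter.

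Pairing by replicate number was checked by correlating the deviations of same-numbered libraries, which gave -0.38 to 0.286 in MM.1S and 0.164 to 0.271 in RPMI8226. With the block, the counts were 1081, 1209, 40, 3353, 4059 and 448.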
